A study of Mus musculus with 3 samples.

Results

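The 48 genes described here run the mechanics of mitosis. They were taken from a fixed list of spindle, kinetochore, checkpoint and chromosome-structure genes, and all 48 matched a RefSeq table that holds 21883 protein-coding genes of the mouse build GRCm38. Each was scored by whether a peak had its summit within 1 kb of either gene end, which is called a gene-end peak below. The peaks come from 3 CUT&Tag libraries of Pan02, a cell line from a mouse pancreatic tumour. CUT&Tag uses an antibody to direct a transposase to chromatin, so that DNA next to the antibody's target is tagged and sequenced. The first library used anti-MYC antibody in Pan02 cells carrying the vector, the second anti-MYC antibody in Pan02 cells stably expressing POH1-Flag, and the third anti-Flag antibody in the POH1-Flag cells. POH1 is a deubiquitinase of the proteasome, encoded by Psmd14. Each group had 1 library, so no difference between the cell lines can be set against a spread between replicates, and whether the stable lines were single clones is not stated in the labels.

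Entry into mitosis depends on kinases such as Plk1 and the Aurora kinases, and kinesins and microtubule-binding proteins then build the spindle. Kinetochores attach chromosomes to it, and the spindle checkpoint holds back the anaphase-promoting complex (APC), a ubiquitin ligase, until all are attached. The APC then marks securin and cyclin B for the proteasome, separase cuts cohesin, and the chromosomes part. Many of these genes are transcribed late in the cell cycle through a short promoter element called the CHR (cell cycle genes homology region), bound by MuvB complexes with MYBL2 and FOXM1, and through CCAAT boxes bound by NF-Y. MYC with its partner MAX is known to prefer the E-box CACGTG.

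The lists held 12175 peaks for MYC in vector cells, 22647 for MYC in POH1-Flag cells and 2936 for Flag. A peak's height is given below as the whole number of reads piled up at its summit, solved from the authors' fold enrichment and p-value. The genome-wide background per kb gave relative depths of 1, 1.06 and 1.05, and per fragment length, the unit of a pileup, it was 0.845, 0.826 and 0.946 reads. The orders of the MYC libraries differ because the fragment lengths were taken as 219 and 202 bp, so these scalings move a ratio in opposite directions. Each length was inferred from the smallest peak width in its list and is not stated in the labels. Pileups are small, with medians of 14, 15 and 15 reads over the 3 lists, so most single genes carry a wide counting error. Peak lists do not measure expression, so the labelled cell type could be looked at only through marker genes. Of 7 ductal markers Sox9 had a MYC peak in both lists (11 and 10 reads) and Krt7 in POH1-Flag cells (12 reads), and of 4 macrophage markers Cd68 had one in POH1-Flag cells (22 reads). None of the 5 acinar, 5 fibroblast and 4 T cell markers had one. These 3 markers were named after their values were seen.

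Promoter stretches of 6 members are shown first. Ttk and Espl1 are the members whose RefSeq promoter window holds the E-box. Cdc20 and Ube2c hold CHR and CCAAT matches without an E-box, Cenpf had the largest MYC ratio between the cell lines, and Mad2l1 had the second largest. The last 4 were picked after their values were seen. Each line gives the 150 bases before the transcript start on the gene's own strand, from the RefSeq promoter table of GRCm38.p6. Capitals mark the E-box CACGTG, the CHR letters TTTGAA or TTCGAA and the CCAAT box, on either strand.
Ttk, chr9:83834539-83834688, plus strand: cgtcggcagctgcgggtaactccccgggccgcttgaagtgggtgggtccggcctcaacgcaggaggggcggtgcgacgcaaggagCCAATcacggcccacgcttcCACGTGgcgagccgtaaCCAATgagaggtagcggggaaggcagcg
Espl1, chr15:102296143-102296292, plus strand: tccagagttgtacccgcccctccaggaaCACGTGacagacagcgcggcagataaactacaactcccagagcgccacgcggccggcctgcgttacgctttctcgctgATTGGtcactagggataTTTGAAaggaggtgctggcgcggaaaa
Cdc20, chr4:118437344-118437493, minus strand: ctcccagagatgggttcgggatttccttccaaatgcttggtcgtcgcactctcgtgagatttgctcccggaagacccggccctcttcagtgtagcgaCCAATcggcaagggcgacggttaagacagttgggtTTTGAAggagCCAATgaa
Ube2c, chr2:164769779-164769928, plus strand: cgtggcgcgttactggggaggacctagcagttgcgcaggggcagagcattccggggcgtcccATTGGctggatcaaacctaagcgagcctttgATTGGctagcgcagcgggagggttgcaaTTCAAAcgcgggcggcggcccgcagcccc
Cenpf, chr1:189688087-189688236, minus strand: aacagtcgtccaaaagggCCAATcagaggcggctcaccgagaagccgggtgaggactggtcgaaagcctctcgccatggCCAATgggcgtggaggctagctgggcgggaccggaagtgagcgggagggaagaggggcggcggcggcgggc
Mad2l1, chr6:66535071-66535220, plus strand: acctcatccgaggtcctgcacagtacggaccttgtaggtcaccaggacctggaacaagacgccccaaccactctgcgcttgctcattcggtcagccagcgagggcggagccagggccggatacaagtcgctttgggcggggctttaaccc

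MYC peaks lay at most of these mitotic genes in vector cells and at nearly all of them in POH1-Flag cells. In vector cells 28 of the 48 members had a gene-end MYC peak (58.3%, Wilson 95% interval 44.3 to 71.2%), against 28.2% of all protein-coding genes. In POH1-Flag cells it was 42 of 48 (87.5%, 75.3 to 94.1%), against 40.0% of all genes. All 28 members marked in vector cells were marked again. Of the 20 others, 14 were marked in POH1-Flag cells only and 6 had no gene-end MYC peak in either list. Among all genes, 1.99% of those with a vector peak had none in POH1-Flag cells, and 17.2% of those without a vector peak had one there. With peaks held to a −log10 q of at least 5 the counts were 18 of 48 and 32 of 48 members. Over all 21883 genes they were 4127 (18.9%) and 7425 (33.9%), a lower share in both lists. With peaks held to a −log10 q of at least 10 the counts were 7 of 48 members in vector cells and 22 of 48 in POH1-Flag cells. The 7 were again among the 22. At that limit 1512 (6.91%) and 4391 (20.1%) of all genes were marked, again a lower share in both lists. These shares, and all intervals given here, carry counting error only, and PCR duplicates that were kept would make the intervals too narrow.

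Counts in each of the 8 functional classes were higher in POH1-Flag cells, where the share over all genes was also higher (40.0% against 28.2%). A rise was thus not particular to these classes. Mitotic kinases went from 3 to 4 of 4 genes, spindle checkpoint genes from 4 to 5 of 5, kinesins and spindle proteins from 5 to 6 of 7, and the condensin and cohesin class with Top2a from 7 to 8 of 9. The APC class, which was marked at the lowest share among the classes of more than 3 genes, went from 4 to 8 of 11. Centromere and kinetochore genes went from 4 to 6 of 7, the chromosomal passenger genes from 1 to 3 of 3 and the transcription factors Foxm1 and Mybl2 from 0 to 2 of 2. The median log2 pileup ratio of the members with both peaks was 0.32 over 3 kinases, 0.74 over 4 checkpoint genes, 0.80 over 4 APC genes and 0.67 over 5 kinesins and spindle proteins. It was 0.99 over 4 kinetochore genes and 0.89 over 7 genes of the condensin and cohesin class. Over all genes with overlapping peaks in both lists it was 0.72. With intervals as wide as those given below, classes of this size cannot be ranked. At a −log10 q of at least 10 the mitotic kinases stood at 1 and 1 and the transcription factors at 0 and 0, so 6 of the 8 classes were higher. All genes stood at 6.91% and 20.1% there. With a fold of at least 5 the mitotic kinases fell from 2 to 1, while 7 of the 8 classes were higher. Over all genes 4309 and 6761 were marked at that fold. With gene starts alone the mitotic kinases stood at 3 and 3. With a distance of 2000 bp the spindle checkpoint genes stood at 5 and 5. Under each of these rules 7 of the 8 classes were higher.

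**Figure D1:**
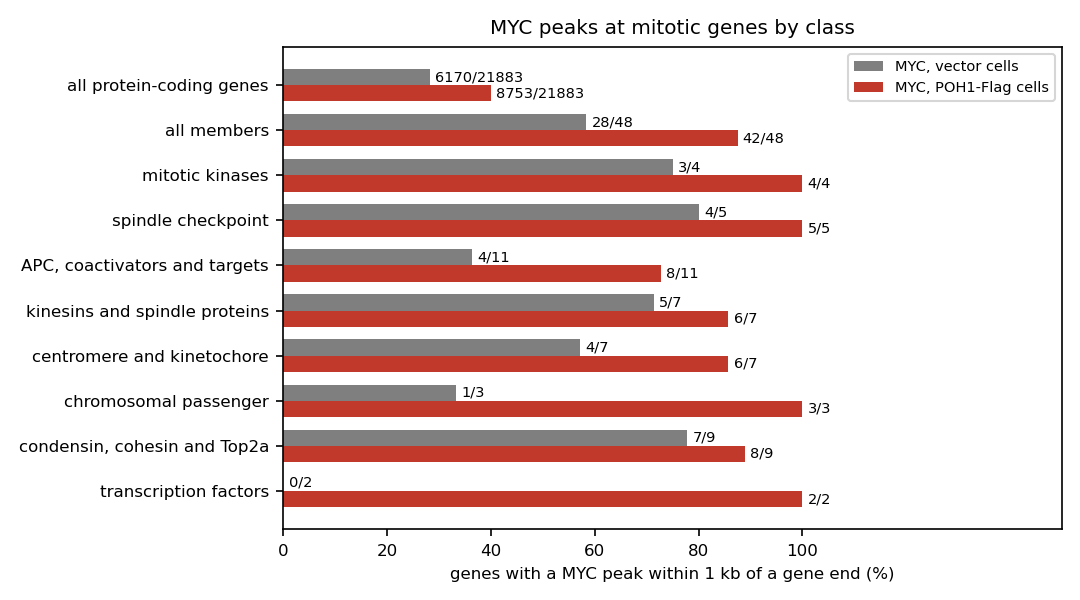
Share of genes with a MYC peak within 1 kb of a gene end (horizontal axis, percent) for all protein-coding genes, all 48 members and each functional class. Grey bars are vector cells and red bars POH1-Flag cells, with counts at the bar ends. Every class has more marked genes in POH1-Flag cells, from 28 to 42 of 48 over all members. All protein-coding genes also rise, from 6170 to 8753 of 21883.

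Pileups at members were of ordinary height for MYC peaks at genes. The median over the 28 marked members was 12.5 reads in vector cells (range 7 to 35), and over all marked genes 15 reads. In POH1-Flag cells it was 19.5 reads over 42 members (8 to 55), against 21 over all marked genes. Only Fzr1 stood near the top, with more reads in POH1-Flag cells than 98.3% of all marked genes. At the other end Bub1 had 8 reads, above 1.10% of them. Peaks at members were 427 bp wide in the median in vector cells and 548 bp in POH1-Flag cells, and over all marked genes 481 and 609 bp.

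**Figure D2:**
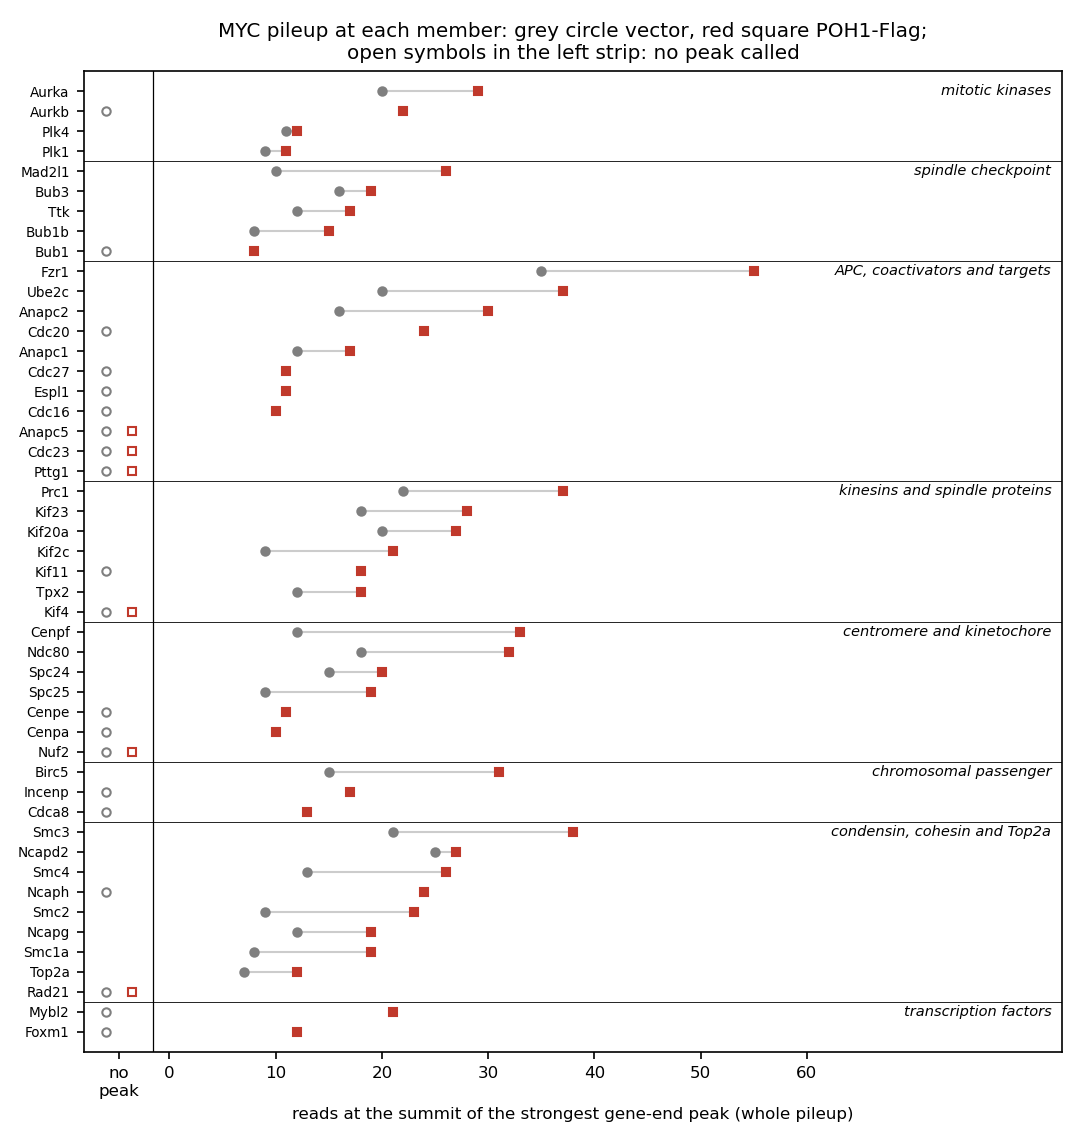
Reads at the summit of the strongest gene-end MYC peak (horizontal axis) for each of the 48 members, ordered within classes. Grey circles are vector cells and red squares POH1-Flag cells; open symbols in the left strip mark a list without a peak, as at Bub1 in vector cells or at Rad21 in both.

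At the 28 members with a peak in both lists, pileups were divided by the background reads per fragment length of each library (0.845 in vector and 0.826 in POH1-Flag cells), and POH1-Flag cells came out above vector cells at all 28. Over all 6007 genes with overlapping gene-end peaks in both lists 98.4% had a POH1-Flag to vector ratio above 1, so this direction was shared with nearly all marked genes. The median ratio was 1.74 over the members (a log2 ratio of 0.80, range 0.14 to 1.49) and 1.65 over all these genes (0.72). Vector pileups bear on this, because genes with few vector reads had higher ratios. The vector pileup is itself the denominator of the ratio, so some of that difference was fixed in advance. Among genes with a vector pileup at or under the members' median, the median log2 ratio was 0.88 at 14 members and 0.84 at 1841 genes. Above it, the medians were 0.73 at 14 members and 0.67 at 4166 genes. The 95% counting interval of the ratio lay above 1 at 11 of the 28 members (39.3%), against 25.8% of all these genes. That count depends on the scaling: with pileups divided by background reads per kb it was 4 of 28, namely Mad2l1, Cenpf, Birc5 and Smc2, against 15.1% of all genes. Scaled to the median of all shared gene-end sites, 13 of the 28 members had a ratio above 1 and no member's interval lay above it. The median log2 ratio was then -0.03 over the members and -0.11 over all genes. This scaling thus lowered ratios by more than the all-gene median. The members thus had higher MYC pileups in POH1-Flag cells by about as much as other marked genes did.

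**Figure D3:**
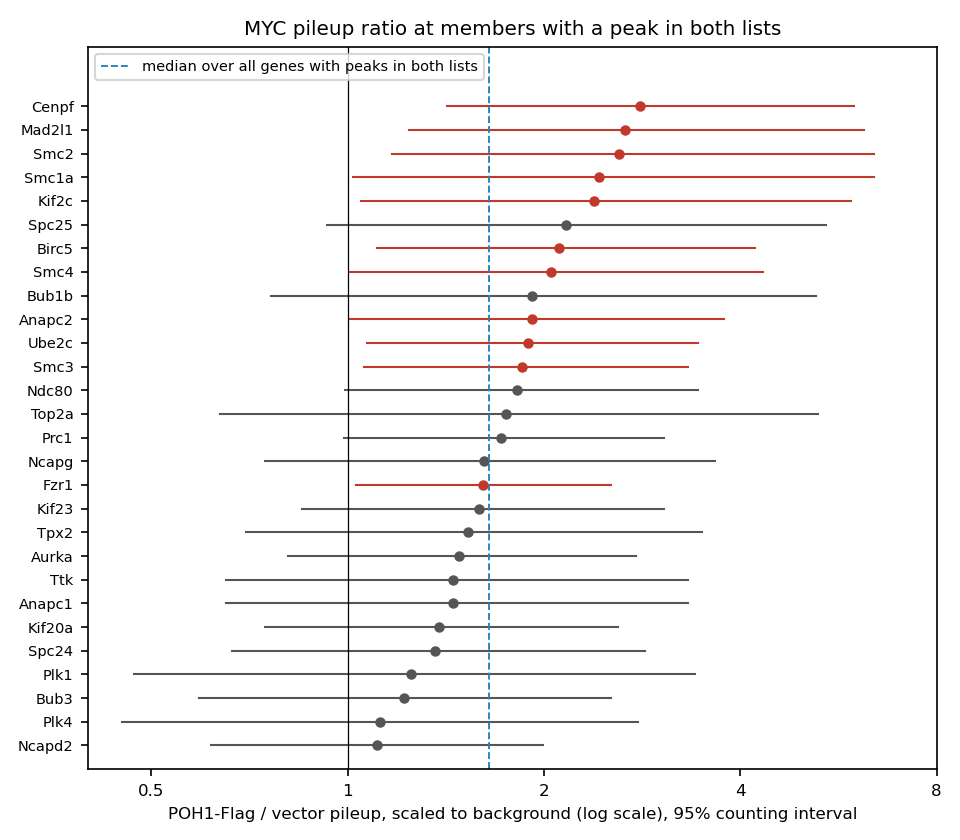
Ratio of scaled MYC pileups, POH1-Flag over vector cells (horizontal axis, log scale), for the 28 members with a peak in both lists, with exact conditional Poisson 95% intervals. Red marks the 11 members whose interval lies above 1; the dashed line is the median of 1.65 over all 6007 genes, and points lie on both sides of it, from Ncapd2 at 1.11 to Cenpf at 2.81.

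Among the mitotic kinases, Aurka, which builds the spindle poles (chromosome 2, 172356190 to 172370886, minus strand), had 20 reads in vector cells and 29 in POH1-Flag cells. Its ratio was 1.48 (0.811 to 2.77), so at these pileups no difference was detectable. Both summits lay inside Aurka, 115 and 133 bp from its start, and were also within 1 kb of an end of Cstf1. Aurkb, the kinase of the chromosomal passenger complex, had a peak in POH1-Flag cells only, of 22 reads. Plk1, the kinase of mitotic entry and spindle assembly, had low pileups of 9 and 11 reads (ratio 1.25, 0.471 to 3.41). Plk4, which starts centriole duplication, was as low, with 11 and 12 reads (1.12, 0.451 to 2.79). The intervals of all 3 kinases with both peaks thus held 1.

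In the spindle checkpoint Mad2l1, which encodes the MAD2 protein that holds CDC20 inactive (chromosome 6, 66535221 to 66541107, plus strand), had 10 reads in vector cells and 26 in POH1-Flag cells. This was the second largest ratio of the members, 2.66 (1.24 to 6.18), and the promoter stretch printed above has no E-box, CHR or CCAAT letters. At Bub3, a partner of the BUB kinases, pileups of 16 and 19 reads gave 1.22 (0.592 to 2.53). Ttk, the kinase known as MPS1 that switches the checkpoint on, had 12 and 17 reads (1.45, 0.652 to 3.33). Its window holds an E-box 45 bases before the start, and the summits lay 52 and 130 bp from it. They lay 0 and 78 bp from its CHR letters and 35 and 113 bp from the nearer CCAAT box. Bub1b, which encodes BUBR1, had 8 and 15 reads (1.92, 0.764 to 5.22). Bub1, a checkpoint kinase at kinetochores, was marked in POH1-Flag cells only, with 8 reads.

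The APC class held the highest pileup of the members in either list, but 4 of its 11 genes were marked in POH1-Flag cells only and 3 in neither list. Fzr1, the coactivator CDH1 that keeps the APC active after mitosis (chromosome 10, 81366879 to 81378370, minus strand), had 35 reads in vector cells and 55 in POH1-Flag cells, the largest values of any member in either list. Its ratio of 1.61 (1.03 to 2.53) was near the median of all genes, and its POH1-Flag summit lay 345 bp upstream of the start. Cdc20, the coactivator that the checkpoint restrains (chromosome 4, 118432901 to 118437343, minus strand), had no vector peak and 24 reads in POH1-Flag cells. That summit lay 27 bp upstream of the start, within the stretch printed above and 9 bp from the CHR letters TTTGAA marked there. Ube2c, the ubiquitin-conjugating enzyme of the APC (chromosome 2, 164769929 to 164772902, plus strand), had 20 and 37 reads (1.89, 1.07 to 3.44). The POH1-Flag summit lay 133 bp upstream of its start, among the CCAAT boxes of its window and 104 bp from the CHR letters.

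Subunits of the APC were marked unevenly. Anapc2, its cullin subunit, had 16 and 30 reads (1.92, 1.01 to 3.77) at a site shared with Ssna1, and Anapc1, its largest scaffold subunit, had 12 and 17 (1.45, 0.652 to 3.33). Cdc16 and Cdc27, which belong to its arm of repeat proteins, had peaks in POH1-Flag cells only, of 10 and 11 reads, as did Espl1, the separase gene, with 11 reads. The Espl1 window holds an E-box 122 bases before the listed start, 33 bp from the summit, with a variant E-box 12 bp, a CCAAT box 45 bp and CHR letters 62 bp from it. Cdc23, Anapc5 and Pttg1, the securin gene, had no gene-end MYC peak. At Anapc5 this rests on the annotation: a peak of 31 and 43 reads (1.42, 0.874 to 2.33) lay 1151 bp inside the gene end but 154 bp from the listed transcript start. At Pttg1 the nearest MYC summits were 34153 bp away in vector cells and 6405 bp away in POH1-Flag cells.

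Among kinesins and spindle proteins, Prc1, which bundles microtubules in the midzone (chromosome 7, 80294445 to 80316259, plus strand), had 22 and 37 reads (1.72, 0.989 to 3.06) at a site shared with Rccd1. Kif23, a kinesin of cytokinesis, had 18 and 28 reads (1.59, 0.85 to 3.06). The ratio was 1.38 (0.746 to 2.60) at Kif20a, another cytokinesis kinesin, with 20 and 27 reads beside Brd8. Kif2c, which takes microtubules apart at kinetochores (chromosome 4, 117159633 to 117182624, minus strand), had 9 and 21 reads, and its interval lay above 1 (2.39, 1.05 to 5.92). Tpx2, the activator of Aurora A, had 12 and 18 reads (1.53, 0.699 to 3.49). Kif11, the kinesin that pushes spindle poles apart, was marked in POH1-Flag cells only, with 18 reads. Kif4, a chromosome-bound kinesin on the X chromosome, had no gene-end peak, and the nearest summit in POH1-Flag cells, of 6 reads, lay 39314 bp inside the gene.

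At the kinetochore Cenpf, a large protein of the outer layer (chromosome 1, 189640606 to 189688107, minus strand), had 12 reads in vector cells and 33 in POH1-Flag cells. Its ratio of 2.81 (1.42 to 5.98) was the largest of the 28 members, and its POH1-Flag summit lay 101 bp upstream of the gene start, within the stretch printed above. That summit lay 10 bp from the nearer CCAAT box. The Cenpf window also holds CHR letters, 2 bases after the listed transcript start and so past the printed bases, 124 bp from the summit. Among the 4 subunits of the NDC80 complex, the microtubule coupler, Ndc80 had 18 and 32 reads (1.82, 0.991 to 3.44) at a site shared with Spdya. Spc24 had 15 and 20 reads (1.36, 0.664 to 2.86) and Spc25 9 and 19 (2.16, 0.931 to 5.42). The other subunit, Nuf2, had no gene-end peak, with the nearest MYC summits 437859 bp away in vector cells and 12195 bp away in POH1-Flag cells. Thus 3 of 4 genes of this complex were marked in both lists. Cenpa, the histone variant of centromeres, and Cenpe, a kinetochore kinesin, were marked in POH1-Flag cells only, with 10 and 11 reads.

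The chromosomal passenger complex, which corrects faulty attachments, had 1 of its 4 genes marked in vector cells and all 4 in POH1-Flag cells. Birc5, which encodes survivin (chromosome 11, 117849237 to 117855743, plus strand), had 15 and 31 reads (2.11, 1.11 to 4.22). The other genes were marked in POH1-Flag cells only, with 22 reads at Aurkb, 17 at the scaffold gene Incenp and 13 at Cdca8, which encodes borealin. Cdca8 shares its site with 9930104L06Rik.

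Condensin, which compacts chromosomes, went from 4 to 5 of 5 genes. Smc2, one of its ATPases (chromosome 4, 52439221 to 52488365, plus strand), had 9 and 23 reads (2.61, 1.17 to 6.42), and its partner Smc4 had 13 and 26 (2.05, 1.01 to 4.34) beside Ift80. Ncapg, a subunit of condensin I, had 12 and 19 reads (1.62, 0.747 to 3.66). Ncapd2, another condensin I subunit, had 25 and 27 reads at a site shared with Mrpl51, the smallest ratio of the members (1.11, 0.617 to 1.99). Ncaph, which closes the condensin I ring, had a peak in POH1-Flag cells only, of 24 reads. Ratios within this one complex thus ran from 1.11 to 2.61, with overlapping intervals.

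Cohesin, which holds sister chromatids together, was marked at its ATPase genes. Smc3 (chromosome 19, 53600396 to 53645831, plus strand) had 21 and 38 reads (1.85, 1.06 to 3.32), and Smc1a 8 and 19 reads (2.43, 1.02 to 6.42) beside Ribc1. Smc1a had another vector peak, of 7 reads, 108 bp outside the gene start. When summits had to lie within 200 bp of each other its ratio was 2.78, with the interval still above 1. Rad21, the subunit that separase cuts, had no gene-end peak. A peak of 11 and 16 reads (1.49, 0.649 to 3.55) lay inside the gene, 1584 and 1707 bp from its higher coordinate. Rad21 had no strand or listed transcript start here, so whether this is its start side was not determined. Top2a, which untangles DNA, had 7 and 12 reads (1.75, 0.637 to 5.26), the lowest pileup among the members' strongest vector peaks.

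The regulators of this gene programme were both marked in POH1-Flag cells only. Mybl2 (chromosome 2, 163054327 to 163084688, plus strand), a MYB family activator of mitotic genes, had 21 reads, with the summit 81 bp downstream of its start. A second Mybl2 peak lay farther inside the gene in both lists, with 9 and 20 reads (2.27, 0.99 to 5.67) at 1491 and 1538 bp from the gene's start. Foxm1, a forkhead activator of the same genes (chromosome 6, 128362994 to 128375886), had 12 reads, at a site shared with Rhno1, and a −log10 q of 2.29, the lowest among members in that list.

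The 14 members marked in POH1-Flag cells only had lower peaks than the others there. Their median was 12.5 reads (8 to 24), against 24.5 reads for the 28 members marked in both lists. Over all genes the same medians were 14 and 25. None of the 14 peaks overlapped a vector peak elsewhere. The local background of each POH1-Flag peak, scaled to the vector library, stood in for the vector background. With it, a vector pileup of 7 to 13 reads would have reached the lowest p of the vector list. The vector background is not known where no vector peak was called, so these limits are estimates. Scaled to the vector background, 7 of the 14 had at least 1.5 times the reads needed. The same share was not worked out for the 2706 genes of the whole set marked in POH1-Flag cells only. Whether 7 of 14 is usual is therefore not known. The widest margins were at Cdc20 (24.6 reads against 10), Kif11 (18.4 against 9), Ncaph (24.6 against 12), Mybl2 (21.5 against 11) and Incenp (17.4 against 9). The narrowest were at Foxm1 (12.3 against 11) and Bub1 (8.19 against 7), where a peak just under the limit in vector cells would give the same picture. These peaks had passed a limit of their own at a similar background, so some margin was fixed in advance.

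MYC summits at members sat at gene starts. Strand was known for 35 of the 42 members marked in POH1-Flag cells, and at all 35 the summit lay within 1 kb of the gene start, against 95.8% of all marked genes with a strand. In these counts the members' summits lay a little farther upstream, at a median of -62 bp from the start (quartiles -131.5 and 87.5 bp), where all genes had a median of 41 bp (quartiles -119 and 148 bp). They lay downstream of the start at 14 of 35 members (40%) and at 56.4% of all genes. In vector cells the medians were 11.5 bp over 24 members and 42 bp over all genes. Between the lists, the summits of 1 member lay 69.5 bp apart in the median, against 69 bp over all genes. Only at Smc1a (318 bp), Bub3 (291 bp) and Spc24 (211 bp) were they more than 200 bp apart. At Smc1a this takes the stronger of 2 vector peaks. At 10 of the 42 members (23.8%) the summit was also near an end of another gene, against 29.6% of all marked genes, so peaks at these sites cannot be assigned to the member alone.

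Motif letters were counted in the RefSeq promoter windows, which run from 250 bases before to 50 bases after each listed transcript start, on both strands. Windows were found for 39 members and 17491 genes in all. Entries were missing for Aurkb, Cdc23, Kif20a, Tpx2, Spc24, Incenp, Smc4, Rad21 and Foxm1. The E-box CACGTG was in the windows of 2 of the 39 members (5.13%, Wilson 95% interval 1.42 to 16.9%), against 8.91% of all genes and 12.4% of those with a MYC peak in POH1-Flag cells. A variant E-box, CACGCG, was in 6 (15.4%, 7.25 to 29.7%), against 13.7% and 22.1%. MYC peaks at members thus lay mostly at windows without the canonical letters. The same held over all genes with a MYC peak in POH1-Flag cells, and the members' interval holds their share of 12.4%. Of the 37 members without an E-box, 23 had a MYC peak in vector cells and 33 in POH1-Flag cells. Over all genes, peaks were more frequent with an E-box than without one, at 44.6% against 27.6% in vector cells.

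CHR letters, TTTGAA or TTCGAA, were in the windows of 23 of 39 members (59.0%, 43.4 to 72.9%), against 20.2% of all genes and 15.9% of those with a MYC peak in POH1-Flag cells. A CCAAT box was in 26 (66.7%, 51.0 to 79.4%), against 42.3% and 44.3%, and both together in 21 (53.8%), against 8.22% and 7.19%. Of the 23 members with CHR letters, 21 had them within 100 bp of the start. Positions were not counted over all genes, so this is not read as a trait of the members. The E2F letters TTCCCGC or TTGGCGC were in 5 (12.8%, 5.6 to 26.7%), against 9.94% and 15.2%. TTGGCGC can share letters with a CCAAT box on the other strand, and the other motifs were counted separately at each place. Among all genes CHR letters went with fewer MYC peaks, at 22.7% with them and 30.8% without in vector cells, and 32.2% and 43.2% in POH1-Flag cells. Members with CHR letters were marked at 16 of 23 in vector cells and at 22 of 23 in POH1-Flag cells, the exception being Kif4, and those without at 8 and 13 of 16. Windows follow listed transcript starts and peaks follow gene ends, and these can differ. At Kif2c, counted as marked, the CHR letters lay 3502 and 3678 bp from the MYC summits. Median log2 pileup ratios were 0.80 at 16 members with CHR letters and 0.91 at 8 without, and 0.72 over all genes in both cases. A match is only a run of letters in this window, and E-boxes outside it were not looked for.

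**Figure D4:**
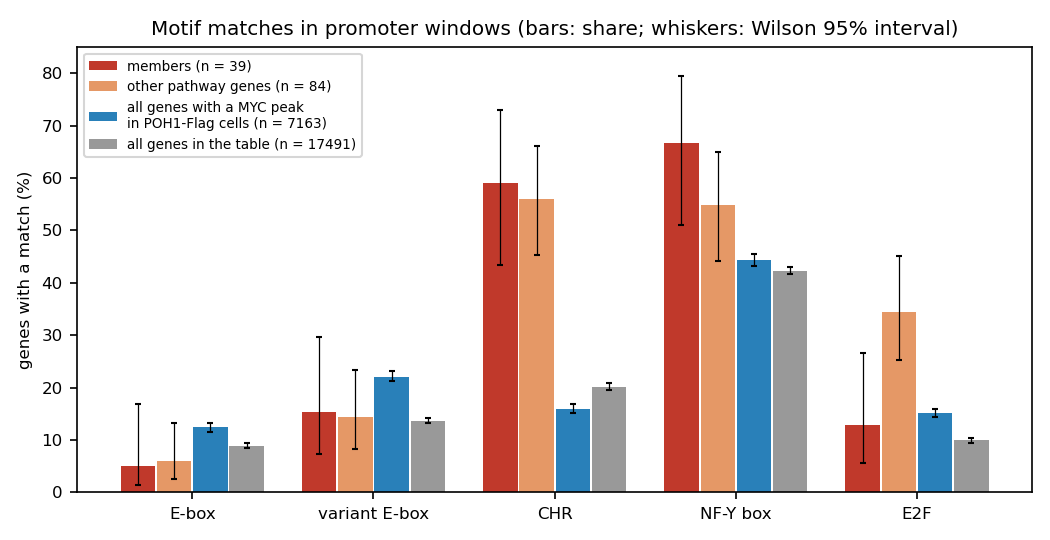
Share of genes (vertical axis, percent) whose RefSeq promoter window holds each motif, for 39 members, 84 other pathway genes, 7163 genes with a MYC peak in POH1-Flag cells and all 17491 genes; whiskers are Wilson 95% intervals and the NF-Y box is the CCAAT box. CHR letters stand at 59.0% of members and 20.2% of all genes, while the E-box stands at 5.13% and 8.91%.

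No member had a Flag peak near an end. The count of 0 of 48 allows a share of up to 6.25%, and 0.196% of all genes had such a peak, so the absence at members is not separated from the background. The nearest Flag summit lay 16224 bp from an end of Mybl2, and the median distance over the members was 464821 bp.

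Other genes of the same processes followed the members. Of 99 genes in a list of further kinases, checkpoint, APC, spindle, kinetochore, cohesin and centrosome genes, 69 had a MYC peak in vector cells (69.7%) and 87 in POH1-Flag cells (87.9%), where all genes stood at 28.2% and 40.0%. None was marked in vector cells only. Of the 30 without a vector peak 18 had one in POH1-Flag cells, and 12 were in neither list. Over all genes it was 2706 of 15713 (17.2%), a lower share. The median log2 ratio was 0.75 over 69 genes, and the interval lay above 1 at 21 of them (30.4%), near the 25.8% of all genes. The highest pileups in POH1-Flag cells were at Kif22 (29 and 52 reads, 1.83, 1.14 to 3.0), a chromosome-arm kinesin, where the site lay at the far end of the gene next to Maz. Next came the abscission gene Cep55 (32 and 50, 1.60, 1.01 to 2.58), the APC enzyme Ube2s (35 and 49, 1.43, 0.91 to 2.28), the centromere chaperone Hjurp (28 and 46, 1.68, 1.03 to 2.79) and the APC inhibitor Fbxo5 (30 and 45, 1.53, 0.946 to 2.52). Of 14 further condensin and cohesin genes 9 were marked in both lists and 5 in neither.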

How the data were processed

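Peak lists of 3 CUT&Tag libraries were used, with 1 library per group. Per the submitters' processing notes, the peaks rest on BWA 0.7.17-r1188 and MACS2 2.2.7.1 with the build GRCm38 (mm10), and Trim Galore 0.6.6 and FastQC 0.11.9 are also listed. For the parameters, any control library and the handling of duplicates, nothing is given in these sources. Each list holds positions in bp and, per the deposited narrowPeak layout, the authors' score, their linear fold enrichment (a ratio to background), and their −log10 p and −log10 q at the summit. The smallest deposited −log10 q was 1.30 in both MYC lists and 1.36 for Flag.

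Whole pileups and backgrounds were solved from the deposited fold and p-value under a Poisson model, and 100% of peaks gave a whole number within 0.01 reads. The lowest background, 0.845 reads for MYC in vector cells and 0.826 in POH1-Flag cells, scaled the ratios, whose intervals are exact conditional Poisson 95% intervals. Per gene the gene-end peak with the largest −log10 q was described, and overlap meant at least 1 bp. RefSeq genes and promoters of GRCm38.p6 were used. There was no test between cell lines. Scripts ran in Python 3.11.15 with scipy 1.17.1 and were tested on simulated data.

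The members and lists were chosen with earlier results of these data known. The naming rule took, per class, the 2 members with the largest POH1-Flag pileup, every member whose ratio interval excluded 1, every member marked in 1 MYC list or in neither, and the 5 other pathway genes with the largest pileup. The remaining members are given as well. Printed promoters were those with an E-box, plus 4 chosen after seeing values. Alternatives were stricter limits, other distances and gene-end rules, other scalings and other pairings of peaks. The rule that also took listed transcript starts was chosen after seeing the data.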

Additional observations from a re-analysis of the deposited data

How the results depend on the processing

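Of the 48 members, 18 had a vector MYC peak at a −log10 q of at least 5, and 7 at a limit of 10, where POH1-Flag cells had 22 members and the other pathway genes had 13 vector peaks. Members marked in POH1-Flag cells only numbered 11 to 15 under every distance, gene-end and threshold rule tried. At a fold of at least 5 Plk4 was marked in vector cells only. With starts alone, which need a known strand, 24 and 35 members were marked, and with listed transcript starts 29 and 43. The number of members with a ratio interval above 1 was 11 of 28, 4 of 28 with pileups per kb of background and 0 of 28 when scaled to the median of all shared gene-end sites. It was 6 of the 18 with a −log10 q of at least 5 in both lists, so fewer members were counted there. The scaling to shared sites brings the typical gene near 1 by construction, but the median log2 ratio of all genes came out at -0.11. Ratios were thus lowered by more than the all-gene median of 1.65. Prc1 (1.72) and Top2a (1.75) lay above that median but came out at 0.97 and 0.989. This scaling left 13 of 28 members with a ratio above 1 (lowest Ncapd2, 0.623), against all paired members under the other settings. It turned the members' median log2 ratio to -0.03. Of the 11 whose interval had been above 1, Fzr1 alone fell below 1, to 0.907. Under the other settings the median log2 ratio stayed between 0.68 and 0.84. No paired analysis was possible because each group had 1 library. Pileups of 7 to 35 reads in vector cells limit what single genes can show.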
